A study of Mus musculus with 2 samples.

Results

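The Mir200 family, Mir203, Mir205 and the Mir183 cluster are miRNA genes that mark epithelial and sensory cells, and they were followed here in skeletal muscle. Members were the miRNA genes named Mir200a, Mir200b, Mir429, Mir200c, Mir141, Mir203, Mir205, Mir183, Mir182 and Mir96 in the GENCODE M21 annotation, 10 of the 2202 miRNA genes counted. MicroRNA-seq reads short RNAs (the labels give a size range below 30) and counts them per miRNA gene. The tissue was female adult gastrocnemius, the large calf muscle, of B6CASTF1/J, an F1 cross, at 18 to 20 months of age and with no treatment named. The series holds 2 libraries in 1 group, biological replicates 1 and 2. They share a donor entry and have separate tissue sample entries, so a difference between them may be technical. The labels do not settle how many animals were used.

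A miRNA guides the silencing complex to messenger RNAs that pair with its seed, bases 2 to 8 from the 5′ end. The Mir200 family represses the transcription factors Zeb1 and Zeb2, which shut down E-cadherin, and so helps to keep cells epithelial. Mir203 promotes the differentiation of skin keratinocytes and represses the basal cell factor p63. Mir205 is a miRNA of basal layers in skin and glands. The Mir183 cluster is known from sensory cells of the retina, the inner ear and the nose. None of them is a muscle-specific miRNA, and whole muscle holds many cell types. In such bulk tissue, fewer cells of a type and less RNA per cell cannot be told apart.

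The mature miRNAs fall into 7 seeds. They are shown because the counts of genes with the same seed can be read as a sum, also where the genes lie at different loci. The sequences are from RefSeq on GRCm38.p6, and capitals mark the seed. The arm printed is the one known as the main product, since the counts do not separate the arms of a hairpin. Mir200b, Mir200c and Mir429 share a seed:
miR-200b-3p: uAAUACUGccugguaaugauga
miR-200c-3p: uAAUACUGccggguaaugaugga
miR-429-3p: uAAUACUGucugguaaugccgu
Mir200a and Mir141 share another:
miR-200a-3p: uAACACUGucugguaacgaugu
miR-141-3p: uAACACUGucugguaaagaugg
The Mir183 cluster has 3 related seeds:
miR-183-5p: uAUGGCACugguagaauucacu
miR-96-5p: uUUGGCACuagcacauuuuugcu
miR-182-5p: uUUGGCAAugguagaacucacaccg
Mir203 and Mir205 have seeds of their own:
miR-203-3p: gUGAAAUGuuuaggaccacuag
miR-205-5p: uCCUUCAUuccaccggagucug

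The Mir200 seeds differ by a single substitution, U4C from miR-200b to miR-200a, counted from the 5′ end. Within the first seed, miR-200b and miR-200c differ outside the seed at U11G and A22G over their 22 shared positions. In the Mir183 cluster, miR-96 differs in the seed from miR-182 by C8A and from miR-183 by U2A. In the RefSeq table no mature mouse miRNA outside the family carries either Mir200 seed. The seed of miR-96-5p is also carried by miR-1271-5p, which is not a member. No member's printed mature sequence occurs in any of the other 2201 hairpins of the annotation, on either strand. The longest run a member shares with another hairpin is 17 bases, between Mir200a and Mir141. Sequence elsewhere in the genome was not searched, so reads of members lost to the multimapping tally were not tested.

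The members lie at 5 loci on mm10. Mir200b (ENSMUSG00000065549.3, chromosome 4, 156055681 to 156055750), Mir200a (ENSMUSG00000065400.1, 156054896 to 156054985) and Mir429 (ENSMUSG00000065427.1, 156053905 to 156053987) lie within 1846 bases on the minus strand. All of them lie in introns of the tubulin ligase-like gene Ttll10 on the same strand, and Mir429 also overlaps an exon of the noncoding gene Gm13648. Mir200c (ENSMUSG00000065462.3, chromosome 6, 124718322 to 124718390) and Mir141 (ENSMUSG00000065474.1, 124717914 to 124717985) lie within 477 bases on the minus strand, in an intron of the noncoding gene Gm15884. Mir183 (ENSMUSG00000065619.2, chromosome 6, 30169668 to 30169737), Mir96 (ENSMUSG00000065586.1, 30169446 to 30169551) and Mir182 (ENSMUSG00000076361.1, 30165918 to 30165992) lie within 3820 bases on the minus strand, outside any other annotated gene. Mir203 (ENSMUSG00000065574.1, chromosome 12, 112130880 to 112130955, plus strand) is intergenic, 3321 bases from Aspg. Mir205 (ENSMUSG00000065533.1, chromosome 1, 193507463 to 193507530, minus strand) overlaps an exon of 4631405K08Rik, a long noncoding RNA.

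The libraries held 865419 sense counts in miRNA genes for replicate 1 and 2177048 for replicate 2, 2.52 times as many. Of all reads, 80.7% in the former and 71.0% in the latter were multimapping and entered no gene. Levels are given as CPM, counts per 1000000 gene counts. A count of 0 allows up to 3 counts, or 3.47 CPM in the shallower library and 1.38 CPM in the deeper. These limits and all intervals, which are at the 95% level, cover counting error only. They treat reads as independent molecules, which reads are not, so they may be too narrow. The limit of 3 counts is an upper bound alone, while the intervals have both ends, reaching 4.26 CPM for 0 counts in replicate 1. All 9 listed striated muscle miRNAs had counts, led by Mir206 at 40389 and 103232 CPM. The Mir1a and Mir133a genes have copies that make the same mature miRNA. Reads that map to several copies enter no gene, so their counts and the lead of Mir206 are uncertain.

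The members were scarce in this muscle and Mir203 led them in both libraries. Together they took 349 counts, 0.0403% of gene counts (exact Clopper-Pearson interval 0.0362 to 0.0448), in replicate 1. In replicate 2 they took 710 counts, or 0.0326% (0.0303 to 0.0351). The mean was 365 ± 54.5 CPM (SD, n = 2). In replicate 1, 8 members had counts, and Mir200a and Mir141 were at 0. In replicate 2, all 10 had counts. Of the 2202 genes, 606 had counts in either library, with 456 in replicate 1 and 572 in replicate 2. Ranks were made within each library. Mir203 ranked 91 in replicate 1 and 139 in replicate 2. Mir182 ranked 184 and 221, and Mir200c ranked 265 and 183, above Mir182 in replicate 2.

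Mir203 had 275 counts in replicate 1 and 282 in replicate 2, which is 318 CPM (exact Poisson interval 281 to 358) and 130 CPM (115 to 146). Its reads were nearly equal in number although replicate 2 is deeper, so its level was higher in replicate 1. Mir203 was separated from the next member in each library, Mir182 with 27 counts in replicate 1 and Mir200c with 112 in replicate 2, and the intervals did not overlap.

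Mir200c had 7 and 112 counts, or 8.09 CPM (3.25 to 16.7) in replicate 1 and 51.4 CPM (42.4 to 61.9) in replicate 2. Mir200b had 4 and 52 counts, at 4.62 CPM (1.26 to 11.8) and 23.9 CPM (17.8 to 31.3). Mir429 had 1 and 51 counts, at 1.16 CPM (0.0293 to 6.44) and 23.4 CPM (17.4 to 30.8). These 3 genes of the shared seed were all low in replicate 1 and higher in replicate 2, and for none did the intervals overlap. Mir200a and Mir141, which carry the other seed, were at 0 in replicate 1. Replicate 2 held 13 counts of Mir200a and 8 of Mir141 (5.97 and 3.67 CPM). At the level of replicate 2, the depth of replicate 1 would give them 5.17 and 3.18 counts. For Mir200a the ratio of replicate 2 to the 3-count limit of replicate 1 was 1.72 with library totals, and the exact interval ran from 1.21 upward with no upper end. Without a filter its adjusted p was 0.0738 by an exact conditional binomial test and it was not called. A difference of Mir141 was not detectable at this depth.

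Mir205, of basal epithelium, had 9 counts in replicate 1 and 70 in replicate 2, at 10.4 CPM (4.76 to 19.7) and 32.2 CPM (25.1 to 40.6). Mir183 had 24 and 54 counts, at 27.7 CPM (17.8 to 41.3) and 24.8 CPM (18.6 to 32.4). Mir182 had 27 and 66 counts, at 31.2 CPM (20.6 to 45.4) and 30.3 CPM (23.4 to 38.6). Unlike Mir205, whose intervals lay apart, Mir183 and Mir182 overlapped widely between the libraries. Mir96, the third gene of that cluster, had 2 counts in each library (2.31 and 0.919 CPM), too few to show a difference.

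**Figure D1:**
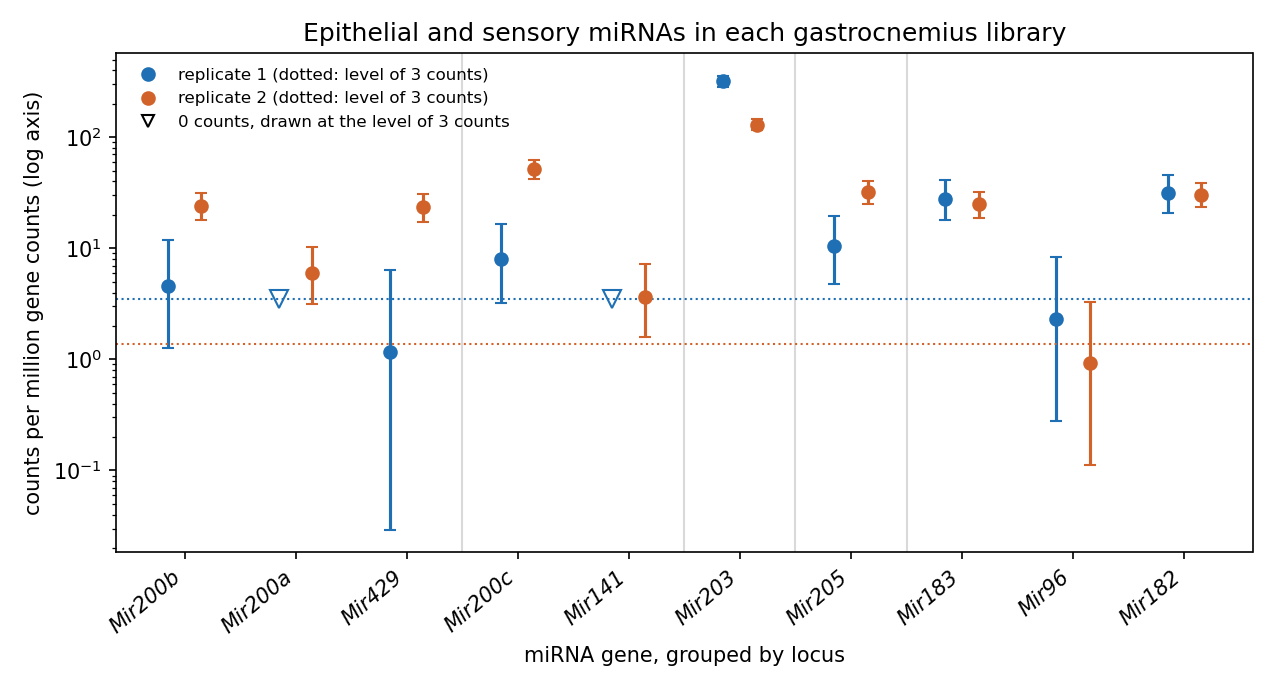
Level of each member in each library, in CPM on a log axis, with exact Poisson intervals (bars) and the level of 3 counts (dotted lines). Mir203 stands at 318 and 130 CPM above all other members, and Mir200b, Mir429, Mir200c and Mir205 lie higher in replicate 2.

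The order of the members differed between the libraries below Mir203. In replicate 1, Mir182 and Mir183 came next, followed by Mir205, Mir200c and Mir200b. Each of these overlapped its neighbour in the order. In replicate 2, Mir200c stood above Mir205, the intervals not overlapping. Mir205, Mir182, Mir183, Mir200b and Mir429 followed between 70 and 51 counts, each overlapping the next. Mir200a, at 13 counts, lay below Mir429 with no overlap.

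The make-up of the member counts shifted accordingly. Mir203 gave 78.8% (exact Clopper-Pearson interval 74.1 to 83.0) of the 349 member counts in replicate 1 and 39.7% (36.1 to 43.4) of the 710 in replicate 2. The 5 genes of the Mir200 family gave 3.44% (1.79 to 5.93) and 33.2% (29.8 to 36.8). Mir205 gave 2.58% (1.19 to 4.84) and 9.86% (7.77 to 12.3). The share of the Mir183 cluster was 15.2% (11.6 to 19.4) in replicate 1 and 17.2% (14.5 to 20.2) in replicate 2. Without Mir203, the other 9 members stood at 74 and 428 counts, or 85.5 and 197 CPM. The sum of all 10 members, at 403 and 326 CPM, followed Mir203 and was lower in replicate 2. That order turned when all reads served as the denominator, at 50.7 and 59.2 counts per 1000000 reads.

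**Figure D2:**
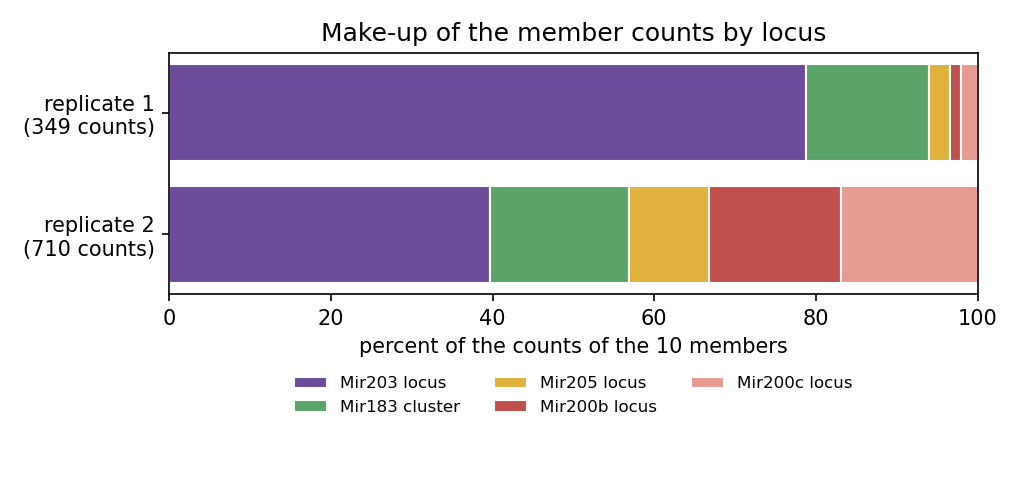
Percent of the counts of the 10 members that each locus gave, per library. Mir203 falls from 78.8% in replicate 1 to 39.7% in replicate 2, while the Mir200b locus goes from 1.43% to 16.3% and the Mir200c locus from 2.01% to 16.9%.

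Between the libraries, Mir200b, Mir200c, Mir429 and Mir205 were higher in replicate 2, Mir203 was higher in replicate 1, and Mir183 and Mir182 were not called. Each gene's split between the libraries was set against that of the library totals in an exact conditional binomial test (two-sided), with Benjamini-Hochberg adjustment over the 305 genes averaging 10 or more counts. Calls were made where the adjusted p was below 0.05 and the libraries differed at least 2-fold. The test holds for these libraries, not for animals or conditions. Over all tested genes the background was high: 33.8% were called, with 26.9% up in replicate 2 and 6.89% up in replicate 1. The median tested gene was 1.35-fold higher in replicate 2. Of the 10 members 7 could be tested, and Mir200a, Mir141 and Mir96 were too low. The 4 members called toward replicate 2 had fewer than 10 counts each in replicate 1. They passed the filter only through replicate 2, where they are high. Their number and their adjusted p values, given below, are thus a description only.

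Mir200c stood 6.36 times as high in replicate 2 (exact interval 2.99 to 16.2, adjusted p = 3.35e-09 by the exact test). Mir200b was 5.17-fold higher (1.90 to 19.7, adjusted p = 0.000288, exact test). Mir429 rested on a single read in replicate 1, and its ratio of 20.3 had an interval from 3.48 to 816 (adjusted p = 3.04e-06, exact test). Mir205 was 3.09-fold higher (1.54 to 7.04, adjusted p = 0.00078, exact test).

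Mir203 went the other way, with a level 2.45 times as high in replicate 1 (2.07 to 2.91, adjusted p = 1.62e-24, exact test). Mir183 had a ratio of 0.894 (0.544 to 1.51, adjusted p = 0.671, exact test) and Mir182 a ratio of 0.972 (0.612 to 1.58, adjusted p = 0.927, exact test). For both, with library totals, the interval leaves out a 2-fold difference in either direction.

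**Figure D3:**
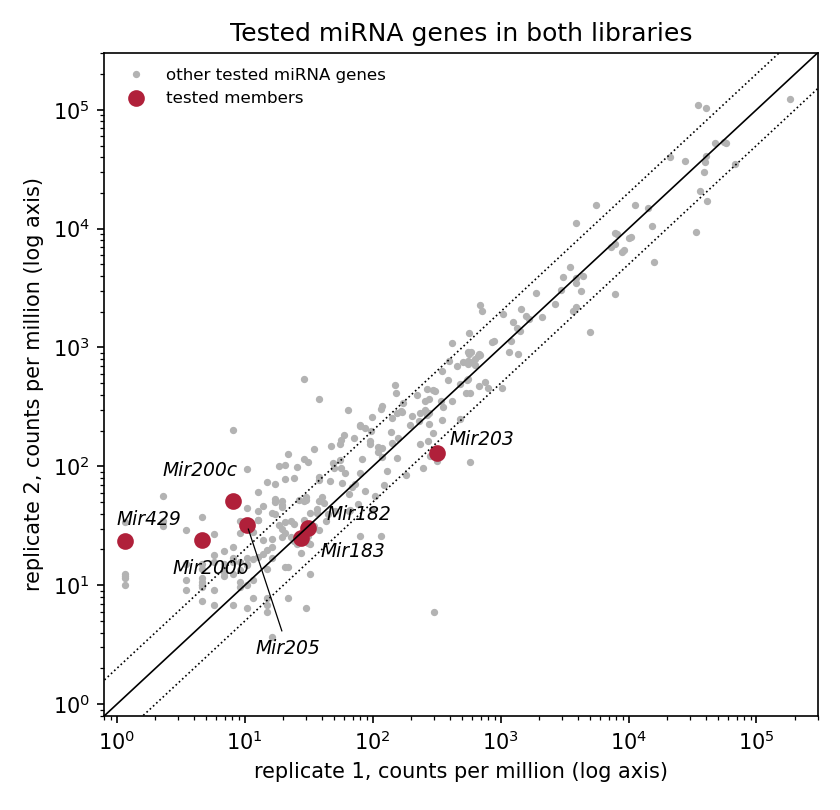
Level of the tested miRNA genes in replicate 1 (x) and replicate 2 (y), in CPM on log axes, with the line of equal level and dotted lines at a 2-fold ratio. Members are red, and 3 other genes at 0 counts in replicate 1 are not drawn. Mir182 and Mir183 lie on the line, Mir203 below it and the other 4 members above it.

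The choice of library size moved these values. TMM factors lower every log2 ratio by 0.28 and DESeq2 size factors by 0.42, and both left the same 5 members called. With TMM, 32.1% of tested genes were called, 21.6% toward replicate 2 and 10.5% toward replicate 1. With DESeq2 size factors the figures were 31.8%, 19% and 12.8%. When all reads of a library, multimapping reads included, served as its size, the median log2 ratio of all tested genes rose from 0.43 to 0.96. The Mir203 log2 ratio was then -0.76, short of the 2-fold threshold, with an adjusted p of 1.26e-09 by the exact test. The 4 members toward replicate 2 remained called, beside 48.2% of tested genes, 45.2% toward replicate 2 and 2.95% toward replicate 1. The Mir183 and Mir182 log2 ratios turned from -0.16 and -0.04 to 0.37 and 0.49, and neither was called.

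The same 5 members were called with the unstranded column, without a filter, without a ratio threshold and with Mir378a, the most abundant gene, left out of the totals. Dropping the ratio threshold could only add calls. The unstranded counts of these members differed from their sense counts only for Mir203 in replicate 2, at 290 against 282. These settings were thus weak checks of the calls. The unstranded column called 32.6% of tested genes, 24.8% toward replicate 2 and 7.8% toward replicate 1. Without a filter the figures were 17.3%, 13.5% and 3.8%, and without a ratio threshold they were 67.9%, 46.9% and 21%. Leaving out Mir378a gave 33.8%, 25.9% and 7.87%. With a mean of at least 100 counts Mir203 was the single member tested, and it was called beside 29.4% of genes, 21.8% toward replicate 2 and 7.65% toward replicate 1.

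Ratios between members within a library do not depend on its size. The ratio of Mir203 to Mir200c was 39.3 in replicate 1 and 2.52 in replicate 2, a 15.6-fold change (exact conditional interval 7.13 to 40.3). The ratio of Mir203 to Mir200b changed 12.7-fold (4.56 to 48.8) and that of Mir203 to Mir205 changed 7.58-fold (3.67 to 17.6), in the same direction. The pairs that follow were added after the values were seen. The Mir183 cluster stood between: the ratio of Mir182 to Mir200c was 6.55 times as high in replicate 1 (2.58 to 18.7), and that of Mir203 to Mir182 was 2.38 times as high (1.45 to 4.00). Mir200b to Mir200c changed 1.23-fold (0.253 to 5.09), an interval that holds no change.

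Genes of a single locus were counted at unequal levels. In replicate 2, Mir200c exceeded Mir141 of the same locus by 14.0 to 1 (exact interval 6.87 to 33.2). Mir200b exceeded Mir200a by 4.00 to 1 (2.15 to 8.01) and was level with Mir429 at 1.02 to 1 (0.679 to 1.53). In both Mir200 loci, the gene with the seed of miR-200a and miR-141 was thus the lowest. The 3 genes of the other seed held 12 and 215 counts in all, against 0 and 21 for that pair. In the Mir183 cluster, Mir182 exceeded Mir96 by 13.5 to 1 in replicate 1 (3.39 to 117) and 33.0 to 1 in replicate 2 (8.78 to 278). Mir183 and Mir182 were nearly level, at 0.889 to 1 (0.491 to 1.60) and 0.818 to 1 (0.560 to 1.19). These are reads per hairpin, not divided by length, of mature miRNAs 22 to 25 bases long.

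Other miRNAs known from epithelia summed to 237 CPM in replicate 1 and 234 CPM in replicate 2. Of 13 listed, 7 were tested and 0 were called with library totals, while Mir194-2 was the 1 gene with an unadjusted p under 0.05 (exact conditional binomial test). Their median log2 ratio was -0.06, against 0.43 for all tested genes and 1.63 for the tested members. TMM also called 0 of them, with 3 at an unadjusted p under 0.05 (exact test). With DESeq2 size factors Mir31 was called higher in replicate 1, and with all reads Mir194-2 and Mir449a were called higher in replicate 2. Whether this list and the members differ was not tested, and the members' median is a description only. The members called toward replicate 2 passed the filter only through that library, where they are high. Mir224 had 60 and 145 counts (ratio 0.961, interval 0.706 to 1.32). Mir375, of endocrine and secretory epithelium, had 32 and 95 counts (1.18, 0.783 to 1.82). Mir34c, of ciliated epithelium, had 37 and 76 counts (0.817, 0.544 to 1.24), and Mir192, of gut, had 28 and 48 (0.681, 0.419 to 1.13). Mir194-2 and Mir449a had the highest ratios of the list, 1.74 (1.00 to 3.21) and 2.10 (0.925 to 5.59), and were not called with library totals. Mir31 had 19 and 31 counts, and Mir215, Mir449b and Mir449c were at 0 in both libraries.

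**Figure D4:**
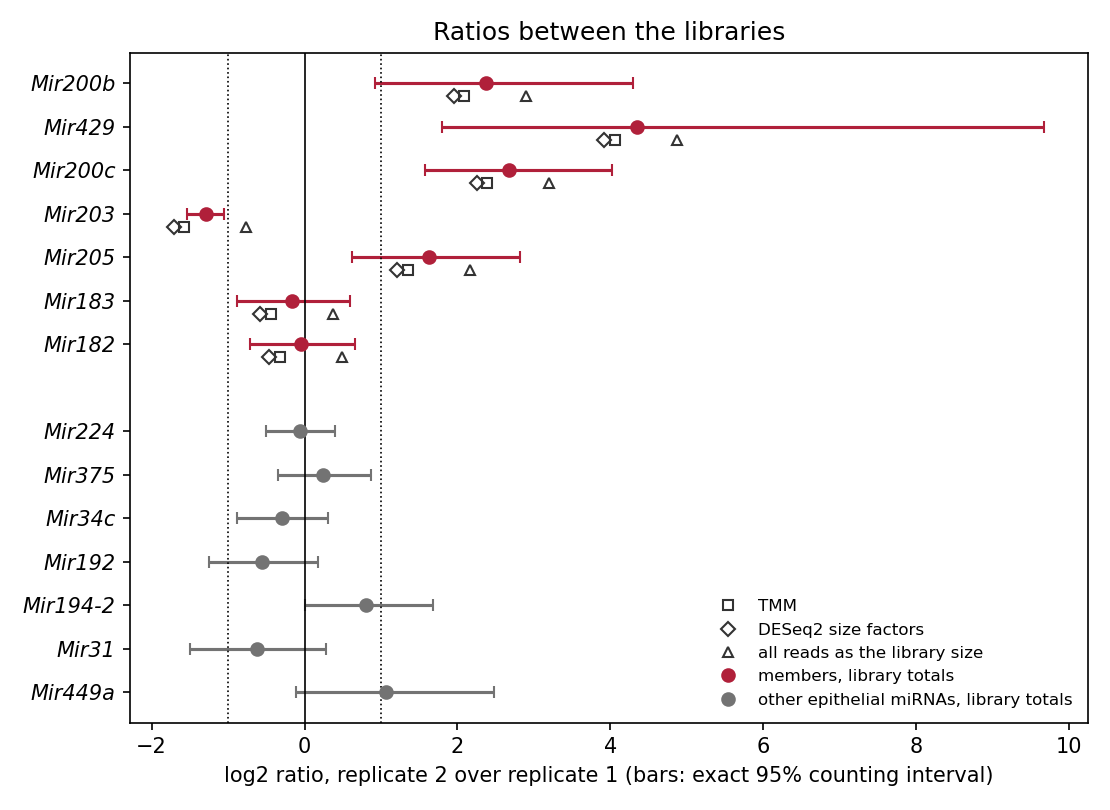
Log2 ratio of replicate 2 over replicate 1 for the 7 tested members (red) and the 7 tested genes of the other epithelial list (grey), with exact counting intervals. Open symbols show members under other library sizes, and dotted lines mark a 2-fold ratio. Mir200b, Mir429, Mir200c and Mir205 lie to the right of 0 under each library size drawn.

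Markers of other cell types differed between the libraries too, and their part in the members' ratios was not tested. The liver miRNA Mir122 had 9 and 207 counts, 9.14-fold higher in replicate 2 (4.72 to 20.3). Of 8 tested striated muscle genes, 4 were called toward replicate 2 (3 with DESeq2 size factors, without Mir206), and the list summed to 40926 and 104491 CPM. That sum leaves out reads that map to several copies of Mir1a or Mir133a. Mir1a-2 had a ratio of 0.60, which either TMM or DESeq2 size factors called toward replicate 1. The fibroblast list stood at 633 and 1383 CPM, with Mir214 called higher in replicate 2 and Mir199a-2 in replicate 1. Mir214 gave 488 of the 548 counts of that list in replicate 1 and 2906 of 3010 in replicate 2. The fibroblast sum leaves out reads that map to several copies of Mir199a. Neither TMM nor DESeq2 size factors called Mir214. Mir145a, of smooth muscle, was called higher in replicate 1, as Mir203 was, and its list, led by Mir143, stood at 75404 and 37985 CPM. Mir143 was called in that direction with TMM and DESeq2 size factors. The leukocyte genes Mir142 and Mir223, among 4 tested, were called higher in replicate 1 too, while the leukocyte list, led by Mir155, summed to 3619 and 4085 CPM. With all reads as library size, Mir145a, Mir142 and Mir223 were not called, while leukocyte Mir155, erythroid Mir144 and muscle Mir133a-1 were called higher in replicate 2. Endothelial Mir126a stood at 47279 and 52968 CPM, the erythroid list, led by Mir451a, at 230 and 316 CPM. Melanocyte Mir211 had 13 and 15 counts, or 15.0 and 6.89 CPM, and was called higher in replicate 1 with TMM and DESeq2 size factors but not with library totals. The neural and sensory list, led by Mir9-3, held 1 count in replicate 1 against 5 in the deeper library, with Mir9-2 and all 3 Mir124a genes at 0. The Mir9 and Mir124a genes each have copies that make the same mature miRNA. Reads that map to several copies enter no gene, so these low counts do not show that the miRNAs are absent.

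Outside the members, the genes closest in level over the 2 libraries were found by distance in log2(CPM + 1). For Mir203 they were Mir223 (241 and 267 counts, distance 0.21), Mir26a-2 (275 and 241, distance 0.22) and Mir1a-2 (234 and 353, distance 0.40). For Mir205 they were Mir383 (8 and 75, distance 0.18), Mir7689 (10 and 61, distance 0.24) and Mir539 (8 and 60, distance 0.26). For Mir200c, the highest member of the Mir200 family, they were Mir341 (9 and 98, distance 0.38), Mir383 (distance 0.59) and Mir1983 (11 and 133, distance 0.64). Mir26a-2 and Mir1a-2, like Mir194-2 and Mir199a-2 above, have copies elsewhere that make the same mature miRNA, so their counts are uncertain where multimapping reads enter no gene. With 2 libraries this likeness describes levels only.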

How the data were processed

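The deposited values are raw read counts per miRNA gene. Per the file headers of the deposited README, they refer to mm10 and GENCODE M21; which aligner and counter made them is not given in the sources used here. The deposited count columns carry no header; sums and tallies identify the unstranded, sense and antisense ones. Sense counts were used, without the 4 tallies (unmapped, multimapping, no feature, ambiguous). CPM divides by the sum over miRNA genes. Groups and replicate numbers are those of the labels. Genes were compared with an exact conditional binomial test. It was checked on simulated Poisson counts, which hold counting error only, so the check does not cover other variation between libraries. A ratio against 0 uses 3 counts. Symbols and positions came from GENCODE M21 and mature sequences from RefSeq; Mir142a was matched as Mir142. The genes named are the 10 members, the 3 genes nearest in level to Mir203, Mir205 and the highest Mir200 gene, the 4 highest genes and any called gene of the other epithelial list, and the leading gene of each further list; Mir31, Mir194-2, Mir449a and other genes outside this rule were named after their values were seen. Members and lists were chosen with earlier results of these data known. Alternatives were TMM (edgeR 4.0.16), DESeq2 1.42.0 size factors, the unstranded column, other filters, no ratio threshold, Mir378a left out of the totals, and, added after seeing the data, all reads as library size. Python 3.11.15, SciPy 1.17.1 and R 4.3.3 were used.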

Additional observations from a re-analysis of the deposited data

Results flagged for a closer look

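Antisense counts enter the comparisons above with the unstranded column but not those of sense counts. At 2 members in replicate 2 they lay above the 3 counts that a count of 0 allows. Over all miRNA genes, 37 had antisense counts in replicate 1 and 51 in replicate 2. Their totals were 25.6% and 20.7% of the sense totals. Replicate 1 is shallower, and no difference in antisense counts between the libraries was tested. Mir203 had 8 antisense counts beside 282 sense counts, 2.76% of both strands (1.20 to 5.36 by the Clopper-Pearson method), and 0 in replicate 1. RefSeq places the mature miR-203b-5p and miR-203b-3p of Gm51289 on that strand. Mir200a had 5 antisense counts beside 13 sense counts, or 27.8% (9.69 to 53.5), and 0 in replicate 1. No GENCODE gene lies opposite either member. Mir183 had 1 antisense count in replicate 1, and the other members had 0 in both libraries.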

How the results depend on the processing

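With a mean of at least 100 counts, Mir203 alone was tested, so 1 member was called, and 50 genes in all. Without a ratio threshold 207 of 305 genes were called, against 103. With all reads as library size, added after seeing the data, which shifts every ratio alike, 147 genes and 4 members were called, and the Mir183 and Mir182 log2 ratios became 0.37 and 0.49. Calls higher in replicate 2 made up 79.6% of calls with library totals, 67.3% with TMM, 59.8% with DESeq2 size factors and 93.9% with all reads. The members' mean level of 365 CPM became 481 with the unstranded column, 432 without Mir378a and 54.9 per 1000000 of all reads. It was 326 to 403 when either library was left out. The unstranded column held fewer gene counts than the sense column, 644072 in replicate 1 and 1726574 in replicate 2. The higher level with that column came from this smaller total, as the member counts hardly changed. Shares of the Mir183 cluster (0.00586% of gene counts) became 0.00773%, 0.00694% and 0.000893% under the same changes. Against all reads, Mir203 took 0.00317% and Mir205 0.000357%. Leaving out either library gave 0.000578% to 0.00533% for the Mir200b locus, 0.000809% to 0.00551% for Mir200c and Mir141, 0.0130% to 0.0318% for Mir203, 0.00104% to 0.00322% for Mir205 and 0.00560% to 0.00612% for the Mir183 cluster. Changes of pair ratios need both libraries, so no library was left out for them, and those of Mir200a and Mir141 need counts above 0. Depth limits the Mir200 family, with 12 counts in replicate 1, and Mir205, with 9. No paired analysis was possible because the series has a single group.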
